A study of Mus musculus with 21 samples.

Results

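The nuclear-coded subunits of respiratory complex I were followed as 36 genes across mouse hearts that differed in diet and in renin. The members were all genes whose name in the deposited gene matrix is Nduf, then a, b, c, s or v, then a number, which gave 36 of the 19096 genes in that matrix. All 36 matched a gene of the same symbol in GENCODE M21, had reads in all 21 libraries and passed the filter on low counts. The pattern leaves out the assembly factors (Ndufaf genes), the acyl carrier Ndufab1 and Ndufb1-ps, and it takes in Ndufa4, which current literature assigns to complex IV.

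Complex I oxidises NADH in the mitochondrial matrix, passes the electrons to ubiquinone and pumps protons across the inner membrane, and it is the main entry point of electrons into the respiratory chain of the heart. Its matrix arm has an N module, where the flavin site takes electrons from NADH, and a Q module, where the last iron-sulphur cluster hands them to ubiquinone. Its membrane arm pumps protons and has a proximal and a distal part. The cores of the membrane arm are encoded by mitochondrial DNA, while the cores of the matrix arm and all accessory subunits are encoded in the nucleus and imported.

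The mice were male C57BL/6NJ animals aged 8 to 10 weeks, and were fed chow or a high-fat diet (HFD, 60% of kcal) over 10 weeks. They received an adeno-associated virus carrying renin, the protease that starts angiotensin production, or a null vector, by retro-orbital injection, and hearts were collected 6 weeks later. The groups were chow novirus (n = 4), chow Renin (n = 6), HFD novirus (n = 6) and HFD Renin (n = 5). The sample labels write novirus where the series description writes null vector. HFD Renin is the full model, which the submitters built for heart failure in which ejection fraction is preserved, and the other groups hold its parts. The labels give neither the promoter that drives renin nor the part of the heart that was frozen, and all animals were of the same sex and strain.

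The libraries held 18.6 to 29.0 M (mega) estimated reads in genes, and all 4 chow novirus totals (up to 21.2 M) were smaller than any other (22.6 M or more). Cardiomyocyte markers were abundant in every library, with Myh6 at 20951 CPM (counts scaled to the normalised library size) or more. Of the 21 libraries 5 held atrial transcripts, with Myl7 and Sln each above 10 CPM: chow novirus replicate 3, chow Renin replicates 1 and 3, HFD novirus replicate 3 and HFD Renin replicate 3. In CPM, the libraries with atrial transcripts had the lowest summed levels of the members in chow novirus, chow Renin and HFD novirus, but not in HFD Renin. In TPM this held for chow novirus and HFD novirus only. HFD novirus replicate 6 stood apart in another way, with the highest value of its group in 28 of the 36 members. The counts of members called in the renin comparisons are given with and without these libraries. The gene lists beside the members are given with all libraries, apart from a call of the mitochondrial gene mt-Nd3. In bulk tissue, fewer cells of a type and less RNA per cell cannot be told apart. Of 3 markers of the mitochondria-rich brown fat, the defining gene Ucp1 was at 0 in 17 libraries and at most at 0.712 CPM, and Elovl3 reached at most 0.135 CPM. The third, Cidea, lay at 18.1 to 32 CPM in every library. Its mean was 20.4 CPM in chow novirus, 21 in chow Renin, 25.5 in HFD novirus and 29.6 in HFD Renin, and it was called higher in HFD Renin against chow novirus (log2 fold change 0.54) and against chow Renin (0.49). Its part in the members' values was not tested.

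Promoter sequences were read for 32 members from RefSeq (GRCm38.p6), in a window of 300 bases from 250 before the annotated start to 50 after it. The other 4 had no entry. The windows were searched on both strands for 5 motifs of factors known to act on nuclear respiratory genes. The NRF1 motif (GCGCA, then any base, then GCGC) was found in 7 of the 32 members (21.9%) and in 5.19% of the 27025 genes of the table. The YY1 motif AANATGGCG was also found in 7 (21.9%), against 2.76% of all genes. The ETS motif CCGGAAG was found in 4 (12.5%, against 9.93%), and the GC box GGGCGG in 14 (43.8%, against 38.2%). The oestrogen-related receptor motif TCAAGGTCA was found in none of the 32, and in 0.466% of all genes. These matches are descriptions of letters in a window.

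The stretches that hold the NRF1 motif are shown because this was the longest motif searched and several members share it. Each line gives 30 bases of the strand of the gene, 5′ to 3′, with the match in capitals (on either strand) and the GRCm38.p6 position. The match began between 98 bases before the start, in Ndufs5, and base 24 after it, in Ndufa6, counted from the annotated start as base 1.
Ndufa11 (chr17:56717692-56717721, plus strand): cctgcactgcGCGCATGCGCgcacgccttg
Ndufa5 (chr6:24527697-24527726, minus strand): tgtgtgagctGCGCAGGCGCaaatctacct
Ndufa6 (chr15:82354249-82354278, minus strand): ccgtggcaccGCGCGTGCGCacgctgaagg
Ndufa8 (chr2:36049349-36049378, minus strand): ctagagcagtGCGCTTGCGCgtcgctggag
Ndufb4 (chr16:37654371-37654400, minus strand): cctcatatccGCGCAGGCGCagatgtgcgc
Ndufs5 (chr4:123718265-123718294, minus strand): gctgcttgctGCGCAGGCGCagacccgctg
Ndufs6 (chr13:73328479-73328508, minus strand): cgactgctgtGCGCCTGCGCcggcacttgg

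The stretches that hold the YY1 motif are shown because of where they lie. In 6 of the 7 members the annotated start codon lay inside the match, so that the letters ATG of the motif are the ATG of the protein. The exception was Ndufb11, with a match that began 211 bases before the start. Ndufs6, an accessory subunit of the N module, held both motifs, and Ndufs7, the Q module core with the lowest fold change under renin plus the high-fat diet, held a YY1 match at base 25.
Ndufa7 (chr17:33824617-33824646, plus strand): gagcggaaggAATATGGCGtccgctactcg
Ndufa9 (chr6:126849096-126849125, minus strand): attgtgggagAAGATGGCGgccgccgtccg
Ndufb11 (chrX:20617811-20617840, minus strand): tcaccaacacAAAATGGCGacgagaagaga
Ndufc1 (chr3:51408914-51408943, minus strand): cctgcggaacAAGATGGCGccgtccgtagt
Ndufs4 (chr13:114388045-114388074, minus strand): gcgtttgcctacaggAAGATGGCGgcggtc
Ndufs6 (chr13:73328433-73328462, minus strand): aagggtcaccggcAAGATGGCGgcggtgct
Ndufs7 (chr10:80249463-80249492, plus strand): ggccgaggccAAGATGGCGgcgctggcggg

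The members were transcribed at levels that spanned 13.3-fold per length. In TPM, a transcript share that corrects for length, the median member stood at 316, and 34 of the 36 stood above 100 in the mean of all libraries. Ndufa4 was highest, at 994 ± 81.4 TPM (SD, n = 21), and was separated from the next gene by more than the spread of both. The distal membrane arm genes Ndufb10 (640.3 ± 68.3), Ndufb8 (618 ± 64.6) and Ndufb9 (563 ± 53.2) followed, and their spreads overlapped. Ndufs4 (79.1 ± 10.3 TPM), whose loss in mice gives a well-known model of complex I deficiency, and Ndufb4 (74.9 ± 6.73) were lowest and overlapped, below Ndufs3 (119 ± 10.7). Medians by module were close, at 306 TPM for the N module, 288 for the Q module, 338 for the proximal and 306 for the distal membrane arm. The mitochondrially encoded subunits lay on another scale, from 7783 ± 1114 TPM for mt-Nd3 to 52435 ± 4469 for mt-Nd4l (SD, n = 21).

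**Figure D1:**
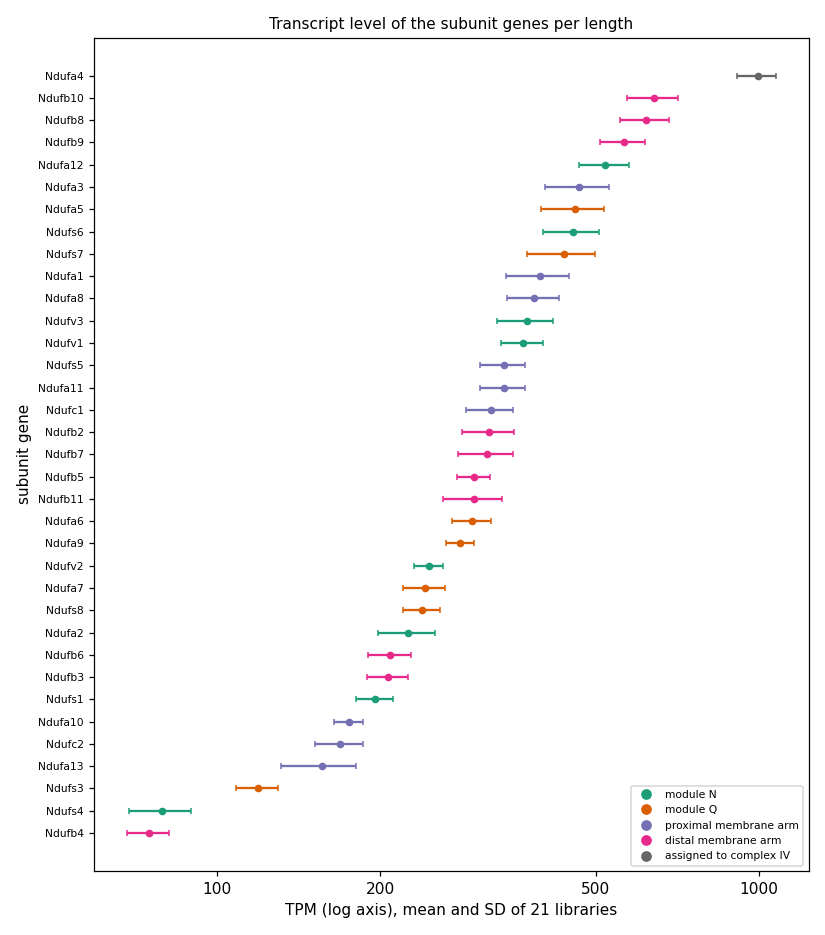
Transcript level of 35 of the 36 subunit genes in TPM (log axis), as the mean and SD of 21 libraries, coloured by the part of complex I. Ndufa4 stands above all others at 994 TPM, most genes lie within their neighbours' spread, and Ndufs3, Ndufs4 and Ndufb4 form the low end.

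A dominant transcript carried most members. In 27 of the 36 a single annotated transcript held at least 90% of the TPM of the gene. The 9 others were Ndufa3, Ndufa5, Ndufb5, Ndufc1, Ndufs1, Ndufs4, Ndufs8, Ndufv1 and Ndufv2. Ndufb5 was split between a transcript of 1079 nt (49.8% ± 3.11) and another of 574 nt (43.8% ± 2.74, SD, n = 21). Ndufv2, an iron-sulphur core of the N module, was split between Ndufv2-201 (57.9% ± 2.11) and Ndufv2-203 (37.6% ± 1.83). In Ndufa5 the short transcript Ndufa5-202 held 17.7% ± 2.11 in chow novirus (n = 4), 16.1% ± 1.84 in chow Renin (n = 6), 16.6% ± 2.09 in HFD novirus (n = 6) and 12.3% ± 1.51 in HFD Renin (SD, n = 5). That share was lowest in HFD Renin, and the difference was not tested. Near-identical copies were found for 17 members (31 genes with at least 90% identity over at least 100 nt), and they held at most 0.115% of the reads of the member except for Ndufb4c. Ndufb4c held 76% as many reads as Ndufb4, so both are uncertain.

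Renin plus the high-fat diet was compared with chow novirus first, the comparison of the full model with its controls. Of the 36 members 35 had a negative log2 fold change, with a median of -0.18 (a difference of -11.9%), while the median of all 15216 genes tested was 0.01. A total of 4 members fell at an adjusted p under 0.05 (edgeR quasi-likelihood test, Benjamini-Hochberg over all genes), and 0 rose. Among all genes tested 4.25% were called lower in this comparison and 8.29% in either direction. The 4 were Ndufs7 and Ndufs8 of the Q module and Ndufv1 and Ndufa12 of the N module. By part of the complex the medians were -0.20 in the N module, -0.19 in the Q module, -0.13 in the proximal and -0.18 in the distal membrane arm, and no difference between parts was tested. At an unadjusted p under 0.05 the count was 20 of 36, against 23.9% of all genes. In 9 members every HFD Renin library lay below every chow novirus library, as did 5.07% of all genes.

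Ndufs7 carries the iron-sulphur cluster next to ubiquinone (chr10:80249121-80256794, GRCm38, plus strand). It measured 292, 302, 254 and 292 CPM in chow novirus and 196, 203.8, 222, 236.3 and 205 CPM in HFD Renin. The groups did not overlap, and the lowest chow novirus value was the library with atrial transcripts. Its log2 fold change was -0.42 ± 0.10 (SE, adjusted p = 0.00884, edgeR) (a difference of -25.3%). Across 34 alternative settings it lost its call in 1, and its log2 fold change ranged from -0.50 to -0.27.

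Ndufs8, another iron-sulphur core of the Q module (chr19:3908863-3912774, minus strand), measured 171, 168, 151 and 170.3 CPM in chow novirus and 134, 143, 139.8, 143 and 137 CPM in HFD Renin. The values did not overlap, and those of HFD Renin lay within a narrow band. The log2 fold change was -0.24 ± 0.07 (SE, adjusted p = 0.033, edgeR).

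Ndufv1 holds the flavin that accepts electrons from NADH (chr19:4007384-4012806, minus strand). It measured 594, 623, 577 and 670.1 CPM in chow novirus and 443, 526, 569, 574 and 471 CPM in HFD Renin. HFD Renin replicates 1 and 5 were far below the rest, and replicates 3 and 4 came close to the lowest control. The log2 fold change was -0.25 ± 0.08 (SE, adjusted p = 0.0421, edgeR). Ndufa12, an accessory subunit of the N module (chr10:94198720-94221443, plus strand), measured 210.0, 208, 185 and 219.7 CPM in chow novirus and 162, 166, 173, 176 and 179.6 CPM in HFD Renin, again without overlap. Its log2 fold change was -0.26 ± 0.08 (SE, adjusted p = 0.049, edgeR), close to the threshold.

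The next 4 members by p did not pass. Ndufv2 measured 305, 305, 269 and 303 CPM in chow novirus against 246, 277, 254, 266 and 257 CPM in HFD Renin, with adjusted p = 0.0527 (edgeR). Ndufa5, an accessory subunit of the Q module, measured 236.03, 249, 209.6 and 256 CPM against 169.5, 192, 199, 219.1 and 194 CPM, with adjusted p = 0.0638 (edgeR). In both genes only the control library with atrial transcripts reached down into the HFD Renin range. Ndufb8 measured 321, 328, 293 and 332 CPM against 249.6, 267, 277, 283 and 273 CPM, and Ndufb10 measured 381, 409, 329 and 389.9 CPM against 291, 314, 327, 351 and 307 CPM. Ndufb8 did not overlap and Ndufb10 did, and both belong to the distal membrane arm. Ndufb3, of the same arm, was the exception in direction, with a log2 fold change of 0.07 ± 0.08 (SE), which did not pass.

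Of the 34 settings, Ndufs8 lost its call in 10, Ndufv1 in 11 (with a log2 fold change as small as -0.05) and Ndufa12 in 16. The count of 4 depended on single libraries. It was 11 without HFD novirus replicate 6, 9 without chow novirus replicate 3, 7 without HFD novirus replicate 3 and 2 without chow Renin replicate 4. It was 1 when chow novirus replicate 1, 2 or 4 or HFD Renin replicate 1, 2 or 5 was left out alone, where the number of all genes called fell as well, from 1262 to between 565 and 793. It was 9 without the 5 libraries with atrial transcripts and 19 without those and HFD novirus replicate 6. In the authors' deposited table, the comparison headed HFD+virus gave 6 members an adjusted p under 0.05 and 35 a negative log2 fold change, with Ndufs7 at -0.36 (adjusted p = 0.0012). The reference group of that comparison is not given in the sources used here.

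**Figure D2:**
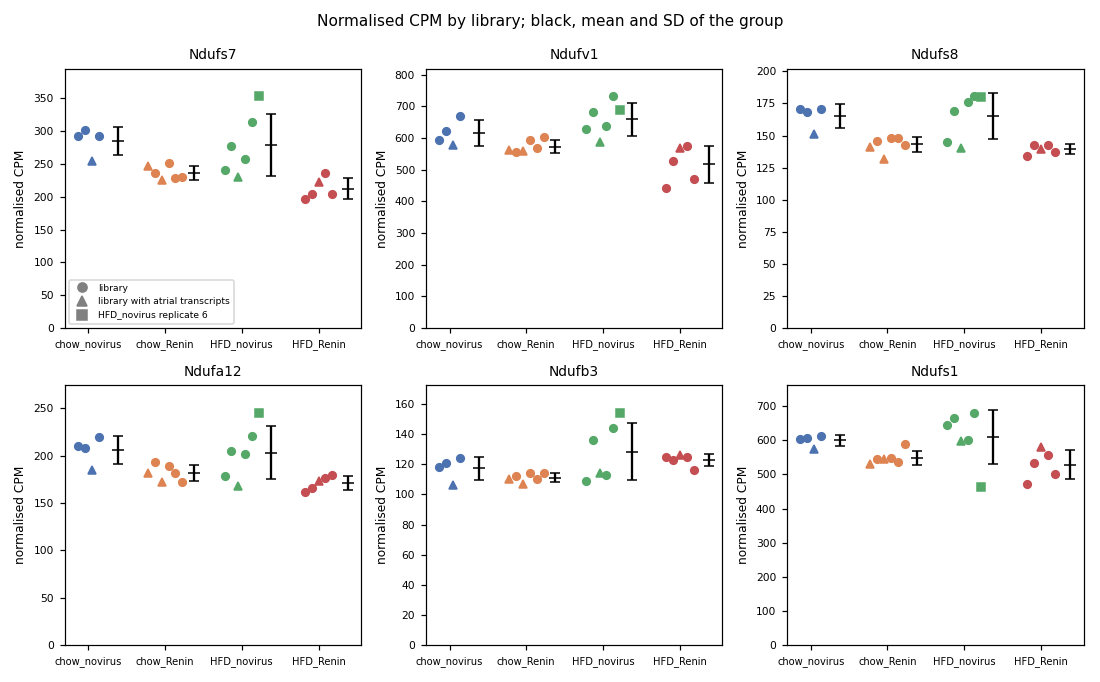
Normalised CPM of 6 subunit genes in each library, with the mean and SD of each group in black, triangles for libraries with atrial transcripts and a square for HFD novirus replicate 6. Ndufs7, Ndufv1, Ndufs8 and Ndufa12 lie lower in all 5 HFD Renin libraries than in the 4 chow novirus libraries, Ndufb3 does not, and Ndufs1 is lowest of its group in the square.

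On the high-fat diet itself, renin was accompanied by lower transcripts of most members. All 36 members were lower in HFD Renin than in HFD novirus, with a median log2 fold change of -0.23 (a difference of -15%), and 22 of them fell at an adjusted p under 0.05 (edgeR) while 0 rose. Among all genes tested, 5.08% were called lower and 11.1% in either direction, and the median of all genes was -0.01. The calls covered every part of the complex, with 5 of 8 members of the N module, 5 of 8 of the Q module, 5 of 9 of the proximal arm, 6 of 10 of the distal arm, and Ndufa4. Groups without any overlap were fewer, with 4 members, against 1.52% of all genes.

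Ndufv1 had the smallest p of the members. It measured 587 CPM at the lowest, 658 at the median and 731 at the highest in HFD novirus, and 443, 526, 569, 574 and 471 CPM in HFD Renin, so the groups did not overlap. The log2 fold change was -0.35 ± 0.07 (SE, adjusted p = 0.00317, edgeR). Ndufs7 ranged from 229.6 to 353 CPM with a median of 267 in HFD novirus, and its 5 HFD Renin values were 196 to 236.3 CPM. A single HFD Renin library, replicate 4, reached into the HFD novirus range, and the log2 fold change was -0.39 ± 0.09 (SE, adjusted p = 0.00678, edgeR). Ndufa5 ranged from 210.5 to 315 CPM with a median of 240.1 in HFD novirus, against 169.5 to 219.1 CPM in HFD Renin, with -0.37 ± 0.09 (SE, adjusted p = 0.00964, edgeR).

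The largest difference was that of Ndufa13, an accessory subunit of the proximal arm also known as GRIM-19. It measured 142, 157, 183, 191 and 154 CPM in HFD Renin and 178 to 303 CPM in HFD novirus (median 209), a log2 fold change of -0.42 ± 0.10 (SE, adjusted p = 0.013, edgeR). Its highest value came from HFD novirus replicate 6, and without that library its adjusted p was 0.0212. Ndufs4, Ndufb6 and Ndufv2 joined Ndufv1 as the members whose groups did not overlap. Ndufs4 measured 88.5 to 98 CPM in HFD Renin and 100.3 to 130.2 CPM in HFD novirus.

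The 14 members that did not pass included Ndufs1, the largest core of the N module, whose groups were 529 ± 43.7 CPM (SD, n = 5) in HFD Renin and 609 ± 79.3 CPM (n = 6) in HFD novirus, with adjusted p = 0.0879 (edgeR). Without HFD novirus replicate 6, which held 462 CPM of Ndufs1 against 598 to 679.8 in the rest of its group, the adjusted p of Ndufs1 was 0.00537. The smallest differences were those of Ndufb3 (-0.06 ± 0.07, SE) and Ndufa10 (-0.09 ± 0.07), accessory subunits of the distal and proximal arm, then Ndufa11 (-0.12 ± 0.08) and Ndufb5 (-0.13 ± 0.06). Ndufb4 had -0.22 ± 0.08 and its copy Ndufb4c -0.29 ± 0.08 (adjusted p = 0.0195, edgeR). Their summed level was 101 ± 5.63 CPM (SD, n = 5) in HFD Renin and 119.7 ± 13.3 CPM (n = 6) in HFD novirus.

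The direction held for all 36 members in all 34 alternative settings, with medians from -0.28 to -0.16, but the count did not. On the TPM scale 34 of 36 were lower (median -0.13), and 29 of 36 without HFD novirus replicate 6 (median -0.04). The count of members called was 7 without HFD Renin replicate 1, 8 without HFD Renin replicate 5 and 11 without HFD novirus replicate 5. It was 12 without HFD novirus replicate 6, 13 without HFD novirus replicate 2 and 14 without HFD Renin replicate 2. It was 26 without the 5 libraries with atrial transcripts and 22 without those and HFD novirus replicate 6. The number of all genes called fell as well, from 1696 to 696 without HFD Renin replicate 1, 784 without HFD Renin replicate 5 and 1291 without HFD novirus replicate 5. With only these 2 groups in the fit, 3 members and 549 of all genes were called. The members Ndufv1, Ndufs7, Ndufa5, Ndufa13, Ndufb11, Ndufb8 and Ndufs4 kept their call whichever library was left out. A clock score, the mean log2 CPM of genes such as Dbp and Hlf minus that of genes such as Arntl, moved with renin: it was 2.93 ± 0.459 (SD, n = 5) in HFD Renin, 3.49 ± 0.112 (n = 6) in HFD novirus, 3.13 ± 0.114 (n = 6) in chow Renin and 3.75 ± 0.144 (n = 4) in chow novirus. With this score as a covariate 0 members were called in any comparison. Of all genes 0 were called either in HFD Renin against HFD novirus or in HFD Renin against chow novirus, so the 0 is no result about the members in these. In chow Renin against chow novirus 1494 of all genes were called in place of 2048, while the members went from 4 to 0. The score left 2644 genes called in HFD Renin against chow Renin and 1943 in the interaction. With the score the members' median was -0.16 with 36 of 36 negative in HFD Renin against HFD novirus. It was -0.07 with 28 negative in HFD Renin against chow novirus, and -0.08 with 31 negative in chow Renin against chow novirus. Cardiomyocyte markers moved too: 5 of 8 fell in HFD Renin against HFD novirus, and the 8 ranged from -0.53 ± 0.08 (SE) for Tnni3 to 0.18 ± 0.08 for Actn2, which did not pass. Their summed level, of which Myh6 alone held 20951 CPM or more, was 44964 to 51619.7 CPM in HFD Renin, 54137 to 61156 in HFD novirus, 52471 to 54361 in chow Renin and 54988 to 64586 in chow novirus. Their part in the members' difference was not tested.

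**Figure D3:**
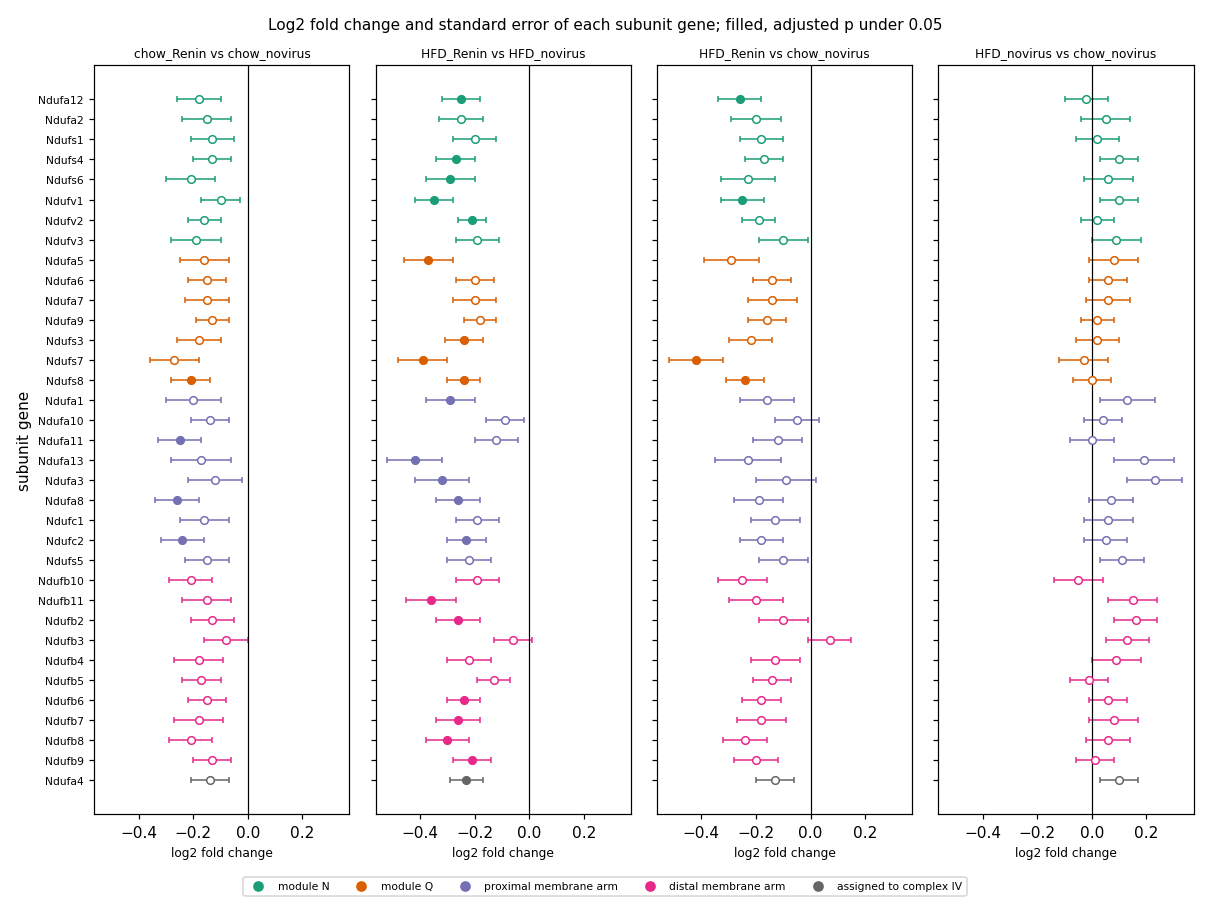
Log2 fold change with its standard error for 35 of the 36 subunit genes in 4 comparisons, ordered by the part of the complex, with filled points for an adjusted p under 0.05. All points drawn lie below 0 in both comparisons of Renin with novirus on the same diet, most are filled on the high-fat diet and 4 on chow, and most lie above 0 for the diet alone.

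Renin on chow gave the same sign. All 36 members were lower in chow Renin than in chow novirus, with a median log2 fold change of -0.16 (a difference of -10.6%) against -0.03 for all genes. Of the members 4 fell at an adjusted p under 0.05 (edgeR) and 0 rose, while 3.36% of all genes tested were called lower and 13.5% in either direction. They were Ndufa8, Ndufc2 and Ndufa11 of the proximal membrane arm and Ndufs8. At an unadjusted p under 0.05 the count was 18, against 25.1% of all genes. In 8 members the groups did not overlap, against 4.75% of all genes.

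Ndufa8, an accessory subunit on the intermembrane space side, measured 292, 310.3, 255 and 295 CPM in chow novirus and 231.4 to 250.1 CPM (median 241) in chow Renin. The groups did not overlap, and the log2 fold change was -0.26 ± 0.08 (SE, adjusted p = 0.0393, edgeR). Ndufs8 measured 132 to 148 CPM (median 145) in chow Renin, below all 4 controls, with -0.21 ± 0.07 (SE, adjusted p = 0.0397, edgeR). Ndufc2, a membrane arm subunit, measured 94, 90.8, 75.8 and 86.6 CPM in chow novirus and 69.7 to 75.7 CPM (median 74.2) in chow Renin, with -0.24 ± 0.08 (SE, adjusted p = 0.0407, edgeR). These groups met closely, since the atrial library of chow novirus was within 0.1 CPM of the highest chow Renin value. Ndufv1, which led on the high-fat diet, had -0.10 ± 0.07 (SE) on chow and did not pass.

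The chow count was 10 without HFD novirus replicate 6, 9 without chow novirus replicate 3, 2 without chow Renin replicate 4 or 6 and 1 without HFD Renin replicate 1. It was 0 when chow novirus replicate 1, 2 or 4 or chow Renin replicate 1, 2, 3 or 5 was left out alone, with 1512 to 1813 of all genes called in place of 2048. It was 2 without the 5 libraries with atrial transcripts. Markers of central nervous tissue were high in chow Renin, with 8 of 8 called higher than in chow novirus and a summed level of 178 to 297 CPM against 45.8 to 53.6. With their score as a covariate 0 members were called, as were only 36 of all 15216 genes (2048 without it), and the median member had a log2 fold change of 0.11 with 11 negative. This score was higher in every chow Renin library than in any library of another group, so it cannot be told apart from chow Renin.

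The high-fat diet alone was not accompanied by a detectable difference in any member. Of the 36 members 0 were called in HFD novirus against chow novirus (edgeR), and 0.0657% of all genes tested were called in either direction. At an unadjusted p under 0.05 the count was 1, against 11% of all genes, and DESeq2 also called 0. The members' median log2 fold change was 0.06, with 30 positive, a median standard error of 0.08 and a range from -0.05 to 0.23. Ndufa3 had the smallest p, at 122 ± 11.2 CPM (SD, n = 4) in chow novirus and 143 ± 25.2 CPM (n = 6) in HFD novirus, with 0.23 ± 0.10 (SE). Ndufb2 and Ndufa13 followed, at 0.16 and 0.19. Without HFD novirus replicate 6 the medians of the members on the CPM scale were level, with 17 lower and 19 higher.

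Under renin, no member was called between the diets, but the summed TPM of the members did not overlap. It was 11078 to 11585 in HFD Renin and 11877 to 12639 in chow Renin, with 34 of 36 members lower in TPM (median -0.10). Of the 36 members 0 were called in HFD Renin against chow Renin (edgeR), while 22.6% of all genes were. In that fit 19 members were negative, and the median was -0.01. At an unadjusted p under 0.05 the count was 1, Ndufv1, with -0.15 ± 0.07 (SE), against 33.7% of all genes, and DESeq2 called 0. Ndufb3 (0.15 ± 0.07) and Ndufs7 (-0.15 ± 0.09) followed. Ndufb3 measured 125, 123, 126, 125 and 116 CPM in HFD Renin and 107 to 114 CPM (median 111) in chow Renin, so its groups did not overlap although it was not called. Among all genes tested 5.55% were higher in this way, and Ndufb3 was the 1 member. Its adjusted p was 0.164 in the edgeR fit. Markers of central nervous tissue differed here, with 8 of 8 called lower in HFD Renin and a summed level of 42.0 to 77.0 CPM against 178 to 297. With their score as a covariate the members' median was -0.23 with 34 of 36 negative and 0 called, while 41 of all genes were called. Without the 5 libraries with atrial transcripts the median was -0.07, with 28 negative and 0 called.

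The effects of renin on each diet were compared with an interaction term. Of the 36 members 0 were called (edgeR, DESeq2 also 0), against 10.4% of all genes. At an unadjusted p under 0.05 the count was 1, against 23% of all genes. The median interaction was -0.07 with a median standard error of 0.11. Ndufv1 had the smallest p, at -0.25 ± 0.10 (SE, adjusted p = 0.142), followed by Ndufb11 (-0.21 ± 0.13) and Ndufa13 (-0.25 ± 0.15). Without HFD novirus replicate 6 the median interaction was -0.01, with 20 of 36 negative in place of 29. Without the 5 libraries with atrial transcripts it was -0.13, with 33 negative, and without those and HFD novirus replicate 6 it was -0.07, with 27 negative. Once the score of central nervous markers entered the fit it was -0.37, with 34 negative and 0 called, while 33 of all genes were called. The 22 calls on the high-fat diet and the 4 on chow therefore do not show that renin acted differently on the diets. Ndufa8, Ndufc2 and Ndufs8 were called in both, which is 3 of the 22 and 3 of the 4, and the pairs of groups share no library but share the spread estimated in the fit. Without HFD novirus replicate 6, Ndufa8 (adjusted p = 0.063, edgeR) and Ndufc2 (adjusted p = 0.107) lost their call on the high-fat diet and Ndufs8 did not.

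The scale on which the members are read changed some of these differences. Summed over the 36 members, normalised CPM was 8275 ± 446 (SD, n = 4) in chow novirus, 7399 ± 195 (n = 6) in chow Renin, 8621 ± 882 (n = 6) in HFD novirus and 7295 ± 399 (n = 5) in HFD Renin. Summed TPM, which counts the members as a share of all transcripts including the mitochondrial ones, was 12944 ± 467, 12339 ± 279, 12497 ± 1809 and 11379 ± 203 in the same order. On the TPM scale HFD Renin lay below chow novirus without overlap, as 11078 to 11585 against 12358 to 13365, with 35 of 36 members lower. In TPM over nuclear genes only, the sums overlapped (28070.0 to 32192 against 31669.5 to 34305), and 33 were lower with a median of -0.12. For chow Renin against chow novirus the median shrank from -0.16 in CPM to -0.06 in TPM and in TPM over nuclear genes, with 34 of 36 lower on both.

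For the diet alone the direction reversed between the scales. In TPM 30 of 36 members were lower in HFD novirus than in chow novirus (median -0.05), and 35 of 36 without HFD novirus replicate 6 (median -0.14), while in CPM 30 were higher. Mitochondrially encoded genes took 36% ± 1.78 of the reads in HFD novirus (SD, n = 6) and 32.9% ± 0.725 in chow novirus (n = 4). With TPM taken over nuclear genes only, 32 members were higher in HFD novirus (median 0.06), and 26 without HFD novirus replicate 6 (median 0.02). For HFD Renin against HFD novirus, TPM over nuclear genes gave a median of -0.18 with 34 of 36 lower, and -0.13 with 35 lower without HFD novirus replicate 6. The lower values of HFD Renin against chow Renin were 34 of 36 in TPM (median -0.10), 27 of 36 in TPM over nuclear genes and 19 of 36 in CPM.

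**Figure D4:**
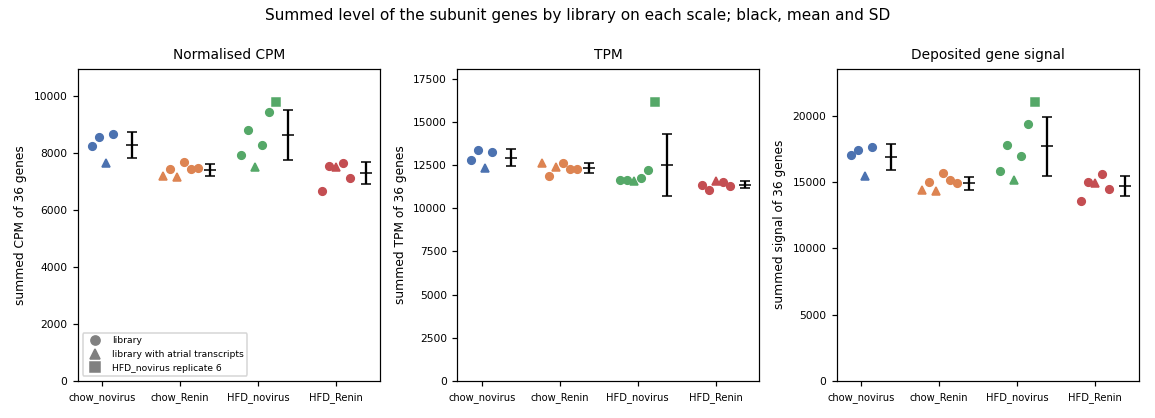
Summed level of the 36 subunit genes in each library in normalised CPM, in TPM and in the deposited gene signal, with the mean and SD of each group in black. HFD Renin is low on all 3 scales, HFD novirus lies level with or above chow novirus in CPM and in the signal but below it in TPM, and the square marks HFD novirus replicate 6 at 16159 TPM.

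HFD novirus replicate 6 differed from the rest of its group by the length of the transcript. Its CPM relative to the mean of the other 5 libraries had a median log2 ratio of 0.33 over the members. The ratio was 0.36 for the 27 members with a mean transcript length of at most 1000 nt and 0.07 for the 9 longer ones, and its rank correlation with length over the 36 members was -0.668, a description of this library. It was highest in Ndufa13 (0.56) and lowest in Ndufs1 (-0.47), the longest transcript. Over all 36 members the log2 fold change of HFD Renin against HFD novirus had a rank correlation with length of 0.0468, and its median was -0.24 for the shorter and -0.21 for the longer members.

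**Figure D5:**
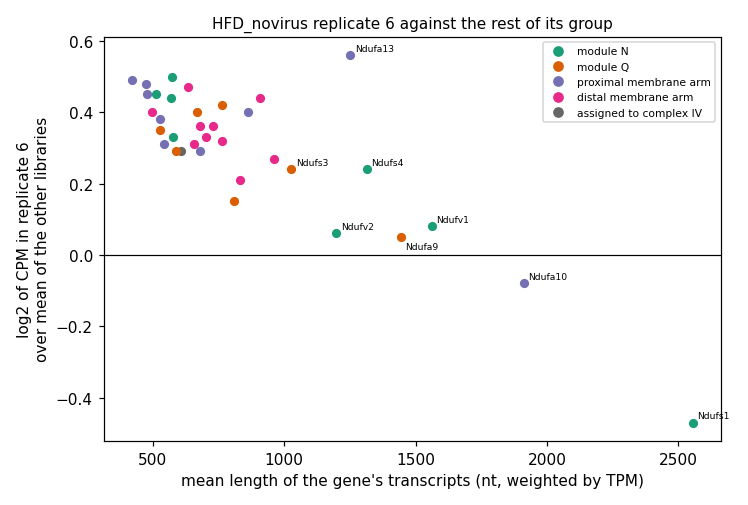
Log2 ratio of CPM in HFD novirus replicate 6 to the mean of the other 5 libraries of its group, against the TPM-weighted mean transcript length of 35 of the 36 subunit genes. Short genes lie near 0.36 and the longest, Ndufs1, at -0.47, while Ndufa13 departs from this order at 0.56.

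The members varied together across libraries. Each log2 CPM value was taken as a deviation from the mean of its group, and deviations were correlated over the 21 libraries. Over the 630 pairs of members the correlation had a median of 0.806 and was above 0 in 599 pairs, and without HFD novirus replicate 6 it had a median of 0.748 and was above 0 in all 630. The genes share libraries, normalisation and depth, so the values describe the set. With all libraries Ndufs1 had the lowest median over its pairs, -0.192, then Ndufa10 with 0.282. These rested on HFD novirus replicate 6: without it the medians were 0.552 for Ndufs1 and 0.529 for Ndufa10, still low among the members.

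The other complexes of the chain were read from lists of their nuclear subunits, in HFD Renin against HFD novirus. Complex II, succinate dehydrogenase, had 3 of 4 subunits called lower (median log2 fold change -0.27), with Sdhc at -0.33 ± 0.07 (SE). Complex III had 6 of 9 called lower (median -0.24), among them Uqcrq at -0.32 ± 0.09 and Uqcrc1 at -0.30 ± 0.06. Complex IV, cytochrome c oxidase, had 8 of 13 (median -0.27), with Cox7a1, a form of heart and skeletal muscle, at -0.50 ± 0.10 and Cox7b at -0.40 ± 0.06. Complex V, the ATP synthase, had 12 of 14 (median -0.29), with Atp5e at -0.46 ± 0.11 and Atp5c1 at -0.29 ± 0.06. Among all genes tested 5.08% were called lower in this comparison. In all these lists 0 genes were called higher, and the median of the complex I members, -0.23, was the smallest in size. These medians were set side by side without a test of their difference.

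Against chow novirus, the counts called lower in HFD Renin were 2 of 4 in complex II, 1 of 9 in complex III, 3 of 13 in complex IV and 6 of 14 in complex V, with medians from -0.24 to -0.17. Among all genes tested 4.25% were called lower there. With renin on chow they were 1 of 4, 3 of 9, 0 of 13 and 3 of 14, against 3.36% of all genes. As in complex I, 0 genes of these lists were called higher.

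The mitochondrially encoded subunits of complex I form the proton-pumping core of the membrane arm. In HFD Renin against HFD novirus 7 of 7 were negative and 1, mt-Nd3, fell, at -0.30 ± 0.09 (SE, adjusted p = 0.0282, edgeR). Among all genes tested 5.08% were called lower there. In HFD novirus against chow novirus 7 of 7 were positive and mt-Nd3 passed the test, at 0.53 ± 0.09 (SE, adjusted p = 0.0394, edgeR). Among all genes tested 0.0657% were called in that comparison. The mt-Nd3 call was lost without HFD novirus replicate 5 or 6 and without any 1 of the 4 chow novirus libraries. It was also lost without chow Renin replicate 3 or HFD Renin replicate 3 and with the replicate block. The same held without the 5 libraries with atrial transcripts, with or without HFD novirus replicate 6. In each of these settings 0 of all genes were called. In HFD Renin against chow novirus 0 of 7 were called, and 6 were positive, with a median of 0.05. In HFD Renin against chow Renin 7 of 7 were positive and 1, mt-Nd2, rose, at 0.26 ± 0.09 (SE, adjusted p = 0.0414, edgeR). Among all genes tested 22.6% were called in either direction there. In chow Renin against chow novirus 6 of 7 were negative and 0 were called. Their summed level was 99591 ± 4202 CPM (SD, n = 4) in chow novirus, 92255 ± 5289 (n = 6) in chow Renin, 112902 ± 14446 (n = 6) in HFD novirus and 102889 ± 9437 (n = 5) in HFD Renin, with overlapping groups.

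Assembly factors build the complex and are no part of it. Of 18 tested, 2 were called lower in HFD Renin against HFD novirus, Ndufaf8 at -0.35 ± 0.09 (SE) and Ecsit at -0.21 ± 0.06, with a median of -0.04. Among all genes tested 5.08% were called lower there. Ecsit was also called lower in HFD Renin against chow novirus (-0.26 ± 0.07), as were 4.25% of all genes. In chow Renin against chow novirus 6 of the 18 were called lower, Ecsit among them (-0.24 ± 0.07), against 3.36% of all genes. In HFD Renin against chow Renin, where 22.6% of all genes were called, 3 of the 18 were called higher, Timmdc1 (0.27 ± 0.07), Ndufaf1 (0.22 ± 0.07) and Tmem126b (0.19 ± 0.06). Timmdc1 was also called in the interaction (0.46 ± 0.10), as were 10.4% of all genes. Central nervous markers differed in both comparisons, and with their score as a covariate only 41 and 33 of all genes were called. The acyl carrier Ndufab1 fell in HFD Renin against HFD novirus (-0.20 ± 0.05) and in chow Renin against chow novirus (-0.20 ± 0.06), and Ndufb1-ps was not called in the first (-0.12 ± 0.06).

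Among 11 transcriptional regulators of nuclear respiratory genes, 1 fell in HFD Renin against HFD novirus, Esrra, the gene of a nuclear receptor that activates oxidative genes, at -0.25 ± 0.07 (SE, adjusted p = 0.0301, edgeR). It also fell in chow Renin against chow novirus, at -0.27 ± 0.08 (SE, adjusted p = 0.0195), and missed the threshold in HFD Renin against chow novirus (-0.23 ± 0.08, adjusted p = 0.0835). In HFD Renin against HFD novirus, Ppargc1a, a coactivator of mitochondrial genes, had -0.29 ± 0.13, and Nrf1 and Yy1, the genes of the factors whose motifs are shown above, had -0.10 ± 0.10 and 0.05 ± 0.05, all without a call. The 11 had a median of 0.06 with 4 negative there, and of -0.18 with 11 negative in chow Renin against chow novirus. Among all genes tested 5.08% were called lower in the former and 3.36% in the latter. Tfam, which packages and transcribes mitochondrial DNA, had 0.19 ± 0.07 in HFD Renin against HFD novirus without a call. It was called higher in HFD Renin against chow Renin (0.25 ± 0.07, adjusted p = 0.0168, edgeR) and in the interaction (0.35 ± 0.11, adjusted p = 0.0347). Central nervous markers differed in both of these comparisons as well.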

How the data were processed

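RNA of 21 mouse hearts, a library for each, was quantified per transcript by the authors. Per the file headers, each deposited table holds estimated counts (expected counts, not normalized) and TPM. Another deposited table holds a signal per gene and library, and, for a comparison made by the authors, log2 fold changes with adjusted p-values. The submitters' processing notes name Salmon 1.10.2, DESeq2 1.40.2 and GRCm38. Other settings are not given in the sources used here.

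Of 119215 transcripts 98.0% were matched by identifier to GENCODE M21 genes, and the unmatched held 0.854% to 0.925% of the reads. Raw counts were planned for, so the estimated counts of a gene's transcripts were added up and rounded to whole numbers. Of 23718 genes with reads, filterByExpr kept 15216. edgeR 4.0.16 (R 4.3.3) fitted a term per group over 21 libraries with TMM factors (0.886 to 1.09) and robust glmQLFit, and the quasi-likelihood F test was adjusted by Benjamini-Hochberg over all genes tested, with calls at an adjusted p under 0.05. The 6 contrasts share groups, so those with a common group are not independent. Standard errors are the absolute log2 fold change over the square root of F. CPM is TMM-normalised. The common biological coefficient of variation was 0.154. Intervals from depth would cover counting error only.

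On data simulated for HFD Renin against chow novirus over 15037 genes, 80% of genes changed by 1 on the log2 scale and 43.4% of those changed by 0.5 were called, and 4.65% of calls were of unchanged genes. All members differed by less than 0.5 in every comparison. Pairs of libraries of a group differed by more than counting noise (chi-square per degree of freedom 3.62 to 57.5 over 46 pairs).

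Alternatives were upper-quartile factors, no filter, a replicate block, only the groups compared, clock, central nervous or atrial scores as covariates, the mitochondrial genes left out, DESeq2 1.42.0, limma 3.58.1 on log2(value + 1) of the deposited signal, and each library left out. Thinned libraries and the removal of libraries with atrial transcripts were added after the data were seen. All members entered the counts and medians, and 1 is not reported by name here or drawn singly. Values in every sample were given for the 8 with the smallest adjusted p in HFD Renin against chow novirus, and in other comparisons the 3 with the smallest p were named; further members were named for a call or a contrast after their values were seen. The members and lists were chosen with earlier results of these data known.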

Additional observations from a re-analysis of the deposited data

Results flagged for a closer look

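In 7 of 144 tests of a group for a library far from the rest, the highest or lowest library stood apart, and chance flags about 1 group in 20. Of these, 4 concern chow novirus replicate 3, a library with atrial transcripts, which was lowest in Ndufa11 (100.3 CPM against 125 to 126), Ndufs5 (97.1 against 109.7 to 112), Ndufs8 (151 against 168 to 171) and Ndufv2 (269 against 303 to 305). Ndufc1 was highest in HFD novirus replicate 6, at 134 CPM against 90.3 to 106. Ndufb2 was highest in chow Renin replicate 4, at 95.3 CPM against 82.1 to 86.6. Ndufs1 was highest in chow Renin replicate 6, at 589 CPM against 529.8 to 549.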

How the results depend on the processing

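Across 34 alternative settings, HFD Renin against HFD novirus kept 36 of 36 members negative, while the count of members called, 22 in the fit reported, was 7 to 27 with a library left out, 3 with only the groups compared, 0 with the clock score as covariate and 13 with limma on the deposited signal. For HFD Renin against chow novirus the count of 4 became 1 to 11 with a library left out, 1 with no filter on low counts, 10 with the replicate block, 0 with the clock score, 1 with the central nervous score, 7 with the atrial score, 7 with DESeq2, 2 with limma, 9 without the 5 libraries with atrial transcripts and 19 without those and HFD novirus replicate 6. For chow Renin against chow novirus the count of 4 became 0 to 10 with a library left out, 0 with upper-quartile factors, no filter, the clock score, the central nervous score or thinned libraries, 14 with the replicate block, 12 with only the groups compared, 1 with limma and 2 without the 5 libraries with atrial transcripts. For HFD Renin against chow Renin the count of 0 became 1 with upper-quartile factors, with only the groups compared, and without the atrial libraries and HFD novirus replicate 6. The counts for the diet alone and for the interaction stayed at 0 in all settings run. Thinning to the smallest library left 22 calls for renin on the high-fat diet and 0 for renin on chow. These counts do not measure the power for the diet alone or the interaction. The clock score lay 64.3% between groups in its variance, so it cannot be told apart from renin in full. With the central nervous score as covariate, Ndufa8 (0.09) and Ndufc2 (0.05) changed sign in chow Renin against chow novirus. Ndufb3 (-0.16) did so in HFD Renin against chow Renin. The score was 3.62 to 4.43 in chow Renin and at most 2.49 in any other group, so it cannot be told apart from chow Renin. The cause of the sign changes was not tested. The labels tie replicate numbers to nothing, but replicate 3 of every group held atrial transcripts, and shared handling by number was not tested. Same-numbered libraries of different groups correlated at a median of 0.0962 over 28 pairs (-0.29 to 0.478), other pairs at -0.0109. With the replicate block the count for HFD Renin against HFD novirus was 16.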
